A study of Mus musculus with 30 samples.

Results

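The 10 genes described here belong to the cadherin switch and to epithelial to mesenchymal transition, followed as mouse embryonic stem (ES) cells differentiate: the epithelial adhesion genes Cdh1 and Epcam, the mesenchymal cadherins Cdh2 and Cdh11, the intermediate filament gene Vim, and the transcription factor genes Snai1, Snai2, Zeb1, Zeb2 and Twist1. They were chosen by name, and all 10 have a row among the 23284 genes of both deposited tables. All 10 also passed the filter on low counts, which kept 15841 genes of the time course table and 14840 of the genotype table. The study asks how p53 acts with Wnt and TGF-β inputs on mesendoderm genes, mesendoderm being the cells that give rise to both mesoderm and endoderm. RNA was sequenced from 14 libraries, 2 per group. The time course used E14Tg2a.IV cells (129/Ola, labelled wild type, called E14 here), grown on gelatin with serum and LIF, as ES cells on day 0 and as embryoid bodies (EBs), the aggregates formed by ES cells in suspension, on days 1, 2, 3 and 4. The genotype table used day 4 EBs of 2 kinds. One is Trp53+/+ and labelled wild type, and the other, called p53 family loss here, is Trp53-/- and also expresses hairpins (shRNA) that target p63 and p73. Both of these lines are C57BL/6J and were kept in N2B27 medium with LIF and 2i. The RNA labels name neither Activin nor SB431542, nor a control hairpin in the Trp53+/+ cells, and the number of clones is not stated. Nothing in the labels tells whether paired libraries came from different cultures. The p-values therefore measure only how far these libraries spread, which may be technical.

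Epithelial cells are held together by E-cadherin, the product of Cdh1, whose cytoplasmic tail binds β-catenin and, through it, α-catenin and actin. In the primitive streak of the embryo, epiblast cells lose this epithelial order, pass through the streak and emerge as mesoderm and endoderm. Transcription factors of the Snail, Zeb and Twist families repress Cdh1 by binding E-box elements, and N-cadherin (Cdh2) is gained as E-cadherin is lost, which is called the cadherin switch.

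The E-box preferred by Snail and Zeb factors is CACCTG, which reads CAGGTG on the other strand. Promoters from RefSeq (GRCm38.p6), matched by symbol, were found for 5 of the 10 genes (Epcam, Snai1, Twist1, Vim and Zeb2), and those of Cdh1, Cdh2, Cdh11, Snai2 and Zeb1 are not shown. In the 250 bases before the gene start, Epcam held 2 such elements and Snai1 1, while the windows of Twist1 and Vim and the 4 start sites of Zeb2 held none. Of 32851 promoter windows of this length, 17.2% held at least 1 and 2.06% at least 2. The windows of Epcam and Snai1 are printed because these are an adhesion gene that fell and a Snail gene that rose in the time course. Capitals mark the elements, which begin 187 and 19 bases before the start of Epcam and 126 bases before that of Snai1. A match is a description of the letters, not a bound site. The Epcam window is chr17:87635729-87635978 and the Snai1 window chr2:167537945-167538194, both on the plus strand.
Epcam: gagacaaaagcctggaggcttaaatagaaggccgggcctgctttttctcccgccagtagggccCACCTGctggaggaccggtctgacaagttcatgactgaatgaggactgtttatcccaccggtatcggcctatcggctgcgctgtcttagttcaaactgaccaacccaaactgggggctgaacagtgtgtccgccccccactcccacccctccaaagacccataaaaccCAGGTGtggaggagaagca
Snai1: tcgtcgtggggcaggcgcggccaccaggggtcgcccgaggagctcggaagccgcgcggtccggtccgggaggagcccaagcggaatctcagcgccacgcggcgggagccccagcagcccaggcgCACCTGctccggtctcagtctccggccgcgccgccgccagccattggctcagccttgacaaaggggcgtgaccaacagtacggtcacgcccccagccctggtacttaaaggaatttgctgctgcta

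The E14 libraries held 20104644 to 39835808 reads and the genotype libraries 19104692 to 31580252. Values below are normalised read counts, that is, reads divided by 1 factor per library. They are compared between libraries of 1 table and not between genes, whose transcript lengths differ. Fold changes are on the scale log2(value + 1), which understates the change of low genes, and are given ± SE. A gene was called at a Benjamini-Hochberg adjusted p under 0.05 over all genes of its table (limma). With so few libraries, groups often did not overlap: 66.7% of all tested genes between days 0 and 4, and 43.1% between the genotypes. In the genotype table, Trp53 was at 8339 and 11784 in the Trp53+/+ libraries and at 866 and 802 in the p53 family loss libraries, and Trp73 at 219 and 297 against 48.0 and 52.5. Trp63 had 7 and 4 reads against 6 and 0. The sources used here do not give the deleted part of Trp53.

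The comparison of day 4 with day 0 spans the whole differentiation of E14 cells. The adhesion genes of the epithelium fell modestly, while both mesenchymal cadherins and the factor genes Snai1, Zeb2 and Twist1 rose many times over. Of the 10 genes, 5 rose and 2 fell, where 36.0% of all tested genes were called, 19.2% as higher and 16.7% as lower. The median log2 fold change was 1.52 over the 10 genes and 0.01 over all tested genes. Snai2, Zeb1 and Vim did not pass the test between these 2 days.

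Cdh1, which encodes E-cadherin, was at 25841 and 23594 in the 2 day 0 libraries, 21099 and 26151 on day 1, 25994 and 27164 on day 2, 23457 and 25686 on day 3, and 17072 and 17118 on day 4. Both day 4 libraries lay below every earlier library, and those spanned 21099 to 27164. From day 0 to day 4 it fell by 0.53 ± 0.16 on the log2 scale (adjusted p = 0.026), so that day 4 kept 0.69 of the day 0 level. This call was lost without either day 2 library (adjusted p = 0.052 for each) and without day 4 replicate 1 or 2 (adjusted p = 0.13 and 0.12), and in a fit of the 4 libraries of days 0 and 4 alone (adjusted p = 0.11).

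Epcam encodes an epithelial cell adhesion molecule of ES cells and many epithelia. It was at 9978 and 7539 on day 0, 8302 and 8554 on day 1, 8916 and 9757 on day 2, 8457 and 8652 on day 3, and 5416 and 5045 on day 4. As with Cdh1, both day 4 libraries lay below all of the others. The fall from day 0 was 0.73 ± 0.17, again on the log2 scale (adjusted p = 0.0077). It was not called without day 4 replicate 2 (adjusted p = 0.068) or in the fit of the 4 libraries of days 0 and 4 alone (adjusted p = 0.07).

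Cdh2, which encodes N-cadherin, was at 110 and 455 on day 0, 727 and 854 on day 1, 888 and 804 on day 2, 1117 and 1697 on day 3, and 8314 and 8096 on day 4. The 2 day 0 libraries differed 4.14-fold, yet both lay below all later ones. The log2 fold change from day 0 to day 4 was 5.19 ± 0.51 (adjusted p = 9.3e-05), with a 95% interval of 4.06 to 6.32, and it was 6.21 or 4.17 when day 0 rested on replicate 1 or replicate 2 alone.

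Cdh11 encodes a type II cadherin of mesenchymal cells. It had 10.98 and 15.4 on day 0, 10.3 and 18.4 on day 1, 35.2 and 48.9 on day 2, 427 and 768 on day 3, and 3135 and 3902 on day 4. The libraries of days 2, 3 and 4 formed 3 separate levels, each above the one before. From day 0 to day 4 its log2 fold change of 7.96 ± 0.42 (adjusted p = 5.8e-06) was the largest of the 10 genes.

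Because both cadherins are counted in the same library, their ratio shows the switch without any scaling between libraries. It is not corrected for transcript length, so only its movement can be read. For every 100 reads of Cdh1 there were 0.425 and 1.93 reads of Cdh2 on day 0, 3.45 and 3.26 on day 1, 3.41 and 2.96 on day 2, 4.76 and 6.61 on day 3, and 48.7 and 47.3 on day 4. From day 0 to day 4 the rise of Cdh2 was far larger than the fall of Cdh1, whose transcripts remained abundant. In these bulk samples, fewer cells that express a gene and less RNA per cell cannot be told apart.

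**Figure D1:**
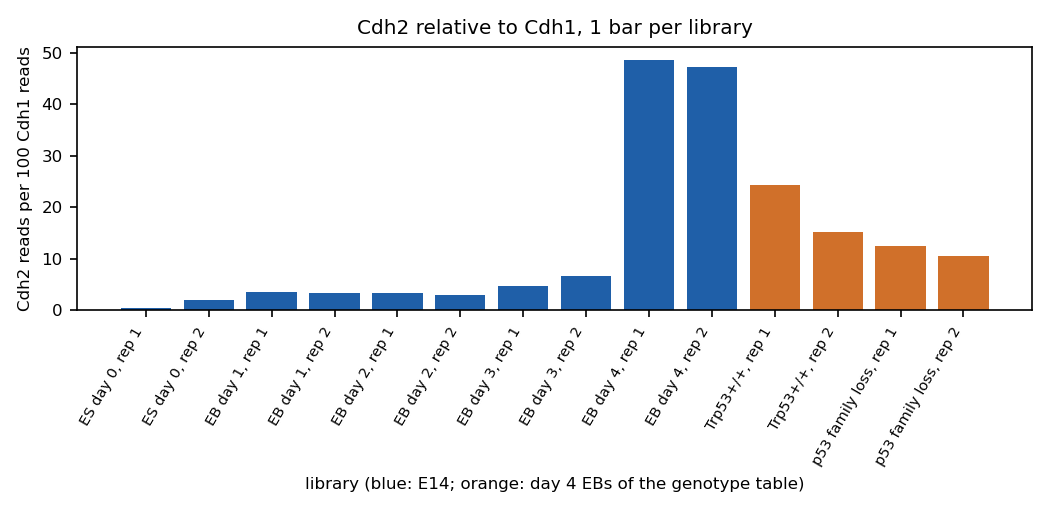
Reads of Cdh2 per 100 reads of Cdh1, not corrected for length, 1 bar per library, in E14 cells from day 0 to day 4 (blue) and in day 4 EBs of the genotype table (orange). The day 4 E14 bars stand at 48.7 and 47.3, and the other 8 E14 bars at 6.61 or below.

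Vim encodes vimentin, an intermediate filament protein of mesenchymal cells that ES cells also make. It was at 5335 and 7609 on day 0, 3276 and 2819 on day 1, 2553 and 2460 on day 2, 1688 and 3443 on day 3, and 6997 and 9747 on day 4. The libraries of days 1, 2 and 3 were all below those of days 0 and 4, which overlapped. Between days 0 and 4 the log2 fold change was 0.37 ± 0.31 (adjusted p = 0.37), while the test for a change on any day called Vim (adjusted p = 0.0041). That test called 9 of the 10 genes, all but Snai2, where 38.9% of all tested genes were called, and Cdh1 passed it narrowly (adjusted p = 0.048).

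Snai1 encodes Snail, a zinc finger repressor of Cdh1 that is required in the mouse streak. It stood at 334 and 132 on day 0, 225 and 213 on day 1, 208 and 216 on day 2, 439 and 549 on day 3, and 3579 and 2891 on day 4. Days 3 and 4 were each separate from all earlier libraries. The log2 fold change from day 0 to day 4 was 3.93 ± 0.38 (adjusted p = 8.2e-05), or 15.3-fold.

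Snai2 encodes Slug, the close relative of Snail that acts in the neural crest and other mesenchyme. It had 25 and 26 reads on day 0, 26 and 34 on day 1, 16 and 12 on day 2, 13 and 17 on day 3, and 13 and 37 on day 4. The 2 day 4 libraries lay on either side of those of day 0, and no change was called over the 5 days (adjusted p = 0.55). The 2 libraries of day 4 alone differed 3.75-fold, and the 95% interval of the log2 fold change from day 0 to day 4 ran from -1.84 to 0.94.

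The Zeb genes encode zinc finger and homeodomain repressors of Cdh1, and the 2 of them followed different courses. Zeb1 was at 306 and 401 on day 0, 231 and 196 on day 1, 44.0 and 48.9 on day 2, 41.0 and 87.4 on day 3, and 328 and 586 on day 4. It thus passed through a trough on days 2 and 3, and the libraries of day 4 overlapped those of day 0, with a log2 fold change of 0.32 ± 0.42 between them (95% interval -0.61 to 1.25). Zeb2 was at 62.6 and 118 on day 0, 66.3 and 109 on day 1, 188 and 277 on day 2, 286 and 606 on day 3, and 1152 and 1521 on day 4. Every library from day 2 on lay above all of those of days 0 and 1, and the log2 fold change from day 0 to day 4 was 3.93 ± 0.45 (adjusted p = 0.00021). In the RefSeq annotation the long noncoding gene Zeb2os and the microRNA gene Mir5129 overlap Zeb2, and the long noncoding gene Gm10125 overlaps Zeb1. The strand setting of the counting is not given in the sources used here, so reads of such partners cannot be separated from those of the Zeb genes.

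Twist1 encodes a basic helix-loop-helix factor of cranial mesoderm and mesenchyme. It had 115 and 84.3 on day 0, 181 and 137 on day 1, 206 and 168 on day 2, 235 and 280 on day 3, and 643 and 626 on day 4. Days 1 and 2 overlapped, while day 0 lay below and days 3 and 4 above them. The log2 fold change from day 0 to day 4 was 2.67 ± 0.29 (adjusted p = 0.00015).

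**Figure D2:**
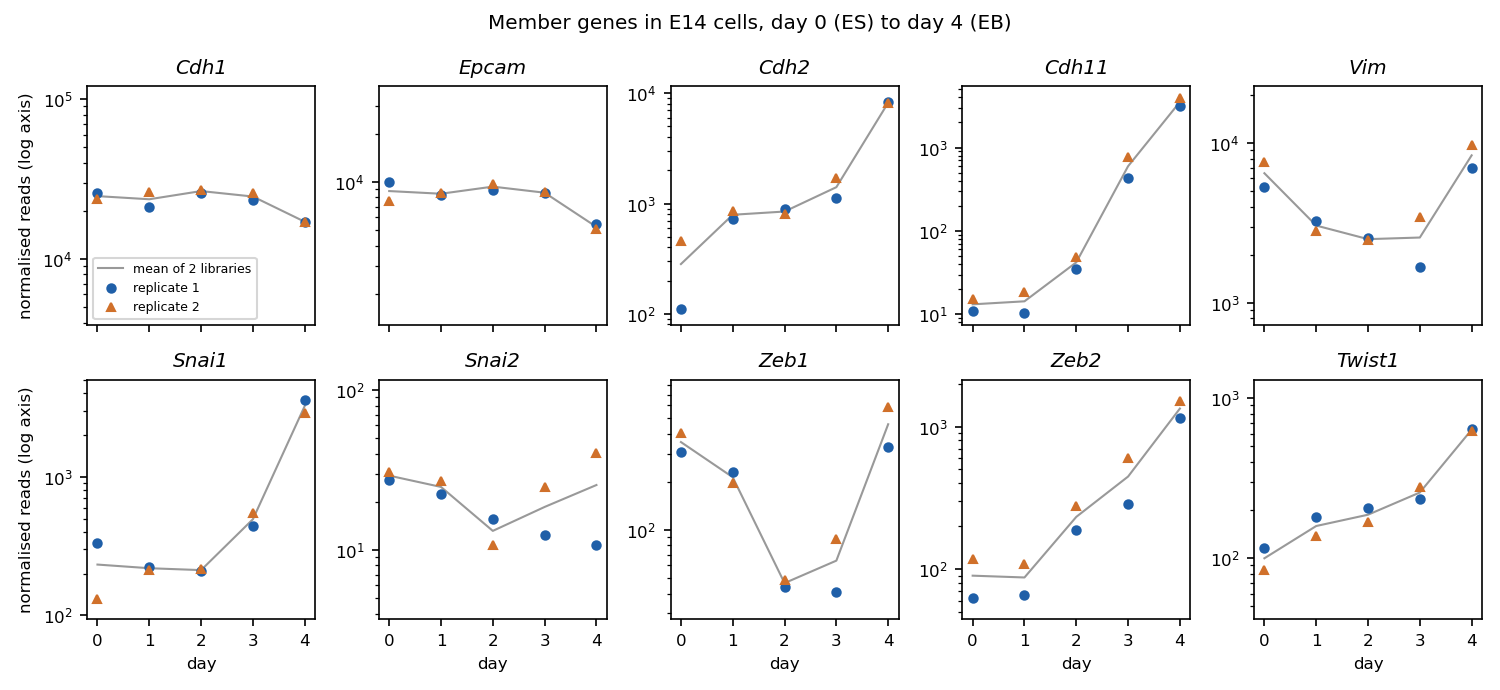
Normalised reads of the 10 genes (log axis, own range per panel) against the day in E14 cells, with 1 point per library and a line through the means of 2 libraries. Cdh1 and Epcam stay level until day 3 and are lower on day 4, Cdh2, Cdh11, Snai1, Zeb2 and Twist1 climb to their highest level on day 4, and Zeb1 and Vim dip and return.

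The steps between neighbouring days ask when the genes moved. They share libraries with one another and with the comparison of days 0 and 4. Most of the called change fell between days 3 and 4, when 6 of the 10 genes rose (2.93% of all tested genes were called at this step, 2.31% as higher and 0.619% as lower). These were Zeb1 (log2 fold change 2.85 ± 0.42), Snai1 (2.71 ± 0.38), Cdh11 (2.61 ± 0.42), Cdh2 (2.57 ± 0.51), Vim (1.78 ± 0.31) and Twist1 (1.31 ± 0.29), with adjusted p from 0.005 to 0.044. Zeb2 was at 1.67 ± 0.45 (adjusted p = 0.088), Epcam at -0.71 ± 0.17 (adjusted p = 0.052) and Cdh1 at -0.52 ± 0.16 (adjusted p = 0.13). This count rests on single libraries, as it fell when any 1 library of days 1 to 4 was left out. In those fits fewer of all tested genes were called as well. Twist1 lost its call in each of them, and Cdh2 without any library of days 1, 3 or 4. Cdh11, Snai1 and Vim lost theirs without day 3 replicate 1 or either day 4 library. Zeb1 lost its call without day 3 replicate 1 or day 4 replicate 2. Over all refits the log2 fold change ran from 2.31 to 3.39 for Zeb1, 2.55 to 2.87 for Snai1 and 2.19 to 3.03 for Cdh11. It ran from 2.27 to 2.88 for Cdh2, 1.26 to 2.29 for Vim and 1.18 to 1.43 for Twist1.

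Cdh11 was the one gene of the 10 that rose from day 2 to day 3 (3.75 ± 0.42, adjusted p = 0.01), a step at which 0.133% of all tested genes were called. The call was lost without day 2 replicate 1 or 2, day 3 replicate 2 or day 4 replicate 1, where fewer of all tested genes were called. Without either day 0 library Snai1 was called higher as well, and so were more of all tested genes. At the step from day 0 to day 1, limma called 0 of the 10 genes, with 3 at an unadjusted p under 0.05. Of all tested genes it called 3.30%, 1.75% as higher and 1.55% as lower. There edgeR called 0 of the 10 and 3.18% of all tested genes, and DESeq2 2 of the 10 and 9.15%. Cdh2 had the largest value there, 1.81 ± 0.51 (adjusted p = 0.086). It was called without day 0 replicate 2, a fit in which many more of all tested genes were called as well. At the step from day 1 to day 2 limma again called 0, with 3 at an unadjusted p under 0.05. It called 0.593% of all tested genes, 0.158% as higher and 0.436% as lower. Here edgeR called 0 of the 10 and 0.48% of all tested genes, and DESeq2 3 of the 10 and 8.14%. Zeb1 was at -2.17 ± 0.42 at that step (adjusted p = 0.055). It was called without either day 0 library, together with Cdh11 and Zeb2, and alone without day 1 replicate 2. In each of these fits more of all tested genes were called too.

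**Figure D3:**
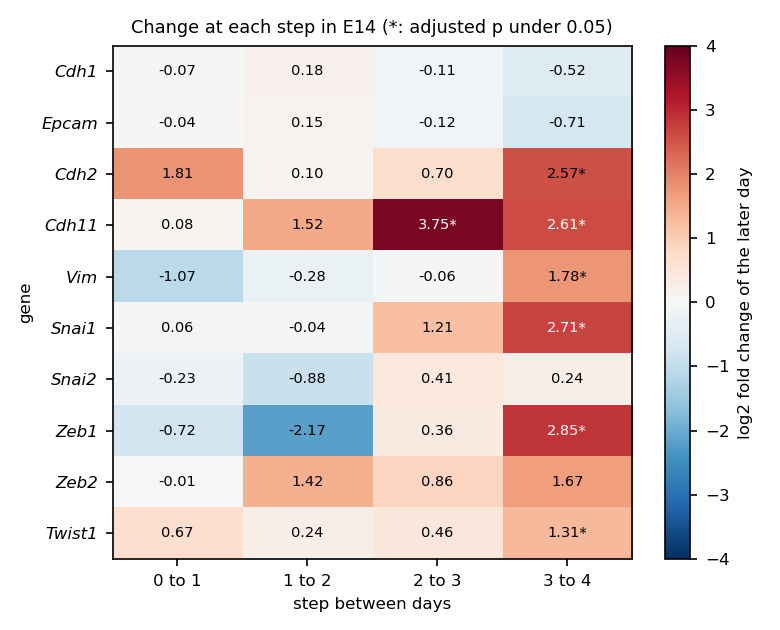
Log2 fold change of the later day at each of the 4 steps between neighbouring days in E14 cells, 1 row per gene, red for higher and blue for lower, with a star for an adjusted p under 0.05. The stars stand at the step from day 3 to day 4 for 6 genes and at the step from day 2 to day 3 for Cdh11.

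Since the trough of Zeb1 and Vim had been seen in these values, days 0 and 4 were each also compared with day 2, in the same fit. From day 0 to day 2, Zeb1 fell by 2.89 ± 0.42 on the log2 scale (adjusted p = 0.0022) and Vim by 1.35 ± 0.31 (adjusted p = 0.017). Over the same days Cdh2 rose by 1.91 ± 0.51 (adjusted p = 0.028) and Cdh11 by 1.60 ± 0.42 (adjusted p = 0.026), so 4 of the 10 genes were called where 18.3% of all tested genes were, 10.1% as higher and 8.22% as lower. The fall of Zeb1 kept its call without each library in turn, whereas without day 2 replicate 1 or 2 it was the single gene called, and without day 4 replicate 1 only Zeb1 and Vim were. Without a day 2 library or day 4 replicate 1, fewer of all tested genes were called too. From day 2 to day 4, 7 genes rose and Cdh1 and Epcam fell (16.0% of all tested genes were called, 8.35% as higher and 7.68% as lower). The returns of Zeb1 and Vim were 3.21 ± 0.42 (adjusted p = 0.0012) and 1.72 ± 0.31 (adjusted p = 0.0058). The falls of Cdh1 and Epcam were no longer called when any library of day 2 or day 4 was left out. Zeb2 lost its call without day 2 replicate 1 or day 4 replicate 2, and Vim without day 4 replicate 2. In these fits fewer of all tested genes were called as well. Snai2 was not called in either comparison.

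The other genes of the transition were taken by list. Among 26 epithelial junction genes and their regulators, 3 rose and 5 fell from day 0 to day 4, with a median log2 fold change of 0.09 against 0.01 over all tested genes. This count is no larger a share than the 36.0% called over all tested genes. Dsp (desmoplakin, of desmosomes) rose by 2.30 and Inadl (a polarity scaffold, now named Patj) by 1.21, while Grhl2 (a transcription factor that maintains epithelia) was at -1.46 and Llgl2 (a polarity protein) at -1.26. Inadl was not called without day 0 replicate 2 or either day 4 library, nor Llgl2 without day 4 replicate 1. The count for this list was 13 genes without day 0 replicate 1, 5 without either day 2 library and 3 without either day 4 library. Of 7 genes for catenins and their partners, Jup (plakoglobin) fell, at -1.61, and Ctnna2 (the neural α-catenin) rose, at 1.45 with day 0 values of 8.78 and 10.7. The call of Ctnna2 was lost without day 0 replicate 1 and without any library of days 2, 3 or 4, and the median of the list was 0.02.

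Among 20 tested genes of mesenchymal matrix, proteases and cytoskeleton, 6 rose and 2 fell, with a median of 0.17, a share near the 36.0% of all tested genes. Fn1 (fibronectin) rose from 30838 ± 357 to 114926 ± 7366 and Mmp14 (a membrane protease) from 952 ± 504 to 2944 ± 208, and Cd44 (a hyaluronan receptor) rose from 71.0 ± 30.6 to 341 ± 46.4 (SD, n = 2 each). Of 17 other factors of the transition, 11 rose and 2 fell, with a median of 1.93. Hmga2, an architectural chromatin protein, rose from 504 ± 211 to 14300 ± 947, Tcf12, an E-protein partner of Twist factors, from 1227 ± 221 to 4645 ± 261, Foxc1 from 15.3 ± 4.80 to 282 ± 19.5 and Gsc, a homeobox gene of the organiser, from 44.3 ± 47.5 to 1206 ± 95.5. Of 26 signals and factors of gastrulation movements, 19 rose and 2 fell, with a median of 2.90. Mixl1, T, Eomes and Mesp1 had the smallest p of these, with log2 fold changes of 8.47, 7.96, 5.90 and 9.15. These medians are descriptions of lists chosen with earlier results of the data known.

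The genes whose levels ran most like those of 4 members over the 10 E14 libraries were found by Pearson's correlation of log2 values among 3978 changing genes. The libraries share days and depth, so the coefficients are descriptions. Closest to Cdh1 were Plk5 (0.967), Abcc4 (0.960), Epcam (0.939) and Adam22 (0.936), and closest to Epcam were Plk5 (0.971), Mfng (0.952), Cdh1 and Rap1gap (0.939). Thus the 2 epithelial genes stood among the 4 nearest of each other. Cdh2 was followed most closely by Peg3 (0.989), Emb (0.984), Foxh1 (0.979) and Pex26 (0.978), and Snai1 by Dusp4 (0.986), Sox17 (0.984), BC023829 (0.980) and Igfbp4 (0.978).

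Levels of cell type markers moved in the same libraries. Some of these markers, such as T, Mixl1, Mesp1 and Gsc, are also in the lists above. From day 0 to day 4, 36.0% of all tested genes were called, 19.2% as higher and 16.7% as lower. The summed level of 8 nascent mesoderm markers, in CPM (reads scaled to the same library total), was 8.53 to 9.16 on day 0, 233 to 380 on day 3 and 1610 to 1650 on day 4, and all 8 rose from day 0 to day 4. The 7 definitive endoderm markers went from 8.86 to 10.6 on day 0 to 261 to 269 on day 4, and all 7 rose. The 7 naive ES cell markers went from 2050 to 2610 on day 0 to 159 to 183 on day 2 and 179 to 261 on day 4, and 6 fell. Among markers of other cell types, 8 neural genes summed to 175 to 189 on day 0 and 11.6 to 24.3 on day 4 (1 rose and 3 fell). The 7 neural crest genes summed to 11.5 to 27.8 and 46.1 to 49.1 (3 of 6 tested rose), and 8 measured visceral endoderm genes to 13.1 to 15.4 and 32.2 to 34.9 (4 of 7 tested rose, and Ttr had no read on day 0). For 10 fibroblast genes, which would mark feeder cells, the sums were 24.8 to 29.2 on day 0 and 37.2 to 89.9 on day 4 (3 of 8 tested rose), and Lum had no read in any E14 library. For 9 surface ectoderm and trophoblast genes they were 4.61 to 5.82 and 38.2 to 70.6 (2 of 5 tested rose), with Tpbpa without a read. The part of these cell types in the levels of the 10 genes was not tested.

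The comparison of the genotypes asks how loss of the p53 family bears on these genes in day 4 EBs. Snai1 and Cdh11 were lower in p53 family loss, Zeb1 was higher, and Cdh1 and Epcam showed no called difference. Thus 3 of the 10 genes were called, where 1.24% of all tested genes were (0.566% higher and 0.674% lower). The median log2 fold change was -0.19 over the 10 genes and 0.01 over all tested genes. All 3 calls held without each of the 4 libraries in turn.

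Snai1 was at 1315 and 1697 in the Trp53+/+ libraries and at 339 and 358 in p53 family loss. The groups lay far apart, and the log2 fold change was -2.10 ± 0.20 (adjusted p = 0.013), which leaves 0.23 of the Trp53+/+ level. Cdh11 was at 1290 and 1469 against 503 and 305. Its log2 fold change was -1.81 ± 0.27 (adjusted p = 0.041), or 0.29 of the Trp53+/+ level.

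Zeb1 went the other way, with 146 and 91.5 in Trp53+/+ and 586 and 517 in p53 family loss. The groups did not overlap, as for 43.1% of all tested genes, and the log2 fold change was 2.24 ± 0.28 (adjusted p = 0.025), or 4.73-fold. Its relative Zeb2 was at 626 and 431 against 965 and 763, a log2 fold change of 0.72 ± 0.24 that was not called (adjusted p = 0.27). It was called when library number was added to the fit, where 20% of all tested genes were called against 1.24% in the main test. Without Trp53+/+ replicate 1 it was also called, in a fit that called more of all tested genes too. Snai2 had 13 and 8 reads against 23 and 36, and its log2 fold change of 1.01 ± 0.48 was not called (adjusted p = 0.43).

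Cdh2 was at 5134 and 2787 in Trp53+/+ and at 2517 and 2020 in p53 family loss. Both Trp53+/+ values were the higher ones, but replicates 1 and 2 of that group differed 1.84-fold. The log2 fold change of -0.75 ± 0.30 was not called (adjusted p = 0.34). It was called when library number was added to the fit (20% of all tested genes called), and without Trp53+/+ replicate 2. The latter fit also called more of all tested genes than the main test. Cdh1 was at 21160 and 18410 against 20273 and 19200, with a 95% interval of the log2 fold change from -0.40 to 0.40. Epcam was at 7661 and 8553 against 6544 and 7463 (interval -0.59 to 0.17). Reads of Cdh2 per 100 reads of Cdh1 came to 24.3 and 15.1 in Trp53+/+ and to 12.4 and 10.5 in p53 family loss. Twist1 was at 154 and 334 against 167 and 241 (interval -1.16 to 0.81), so the p53 family loss values fell within the Trp53+/+ range. Vim was at 3187 and 4557 against 3056 and 3020 (interval -0.82 to 0.16).

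**Figure D4:**
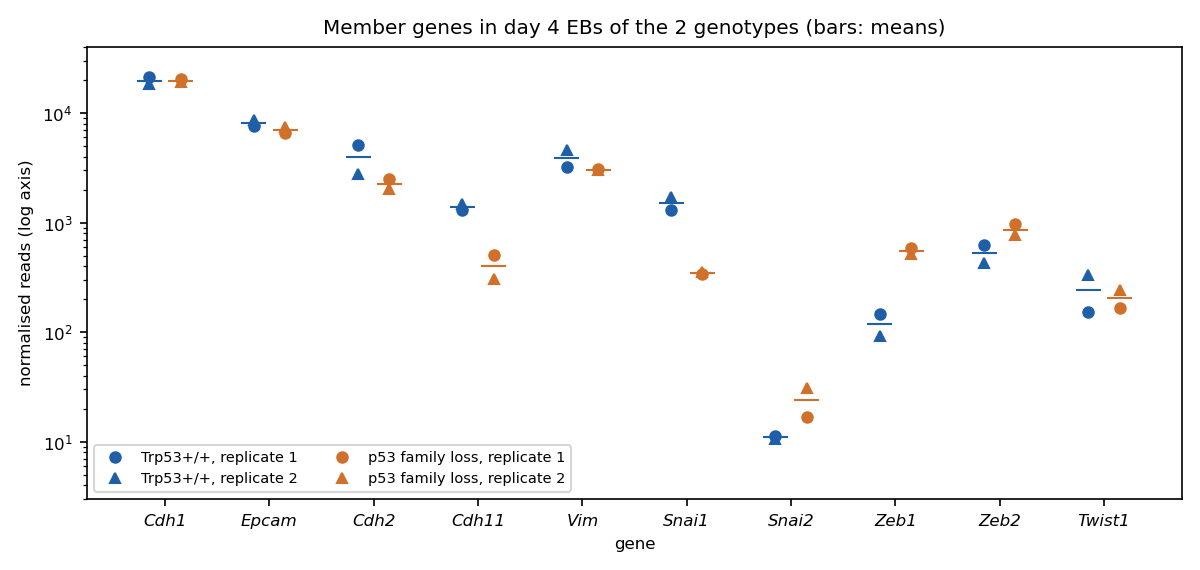
Normalised reads (log axis) of the 10 genes in day 4 EBs, with 1 point per library and a bar at the mean of each genotype. Snai1 and Cdh11 are lower and Zeb1 is higher in p53 family loss, and the points of Cdh1 and Twist1 overlap between genotypes.

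**Figure D5:**
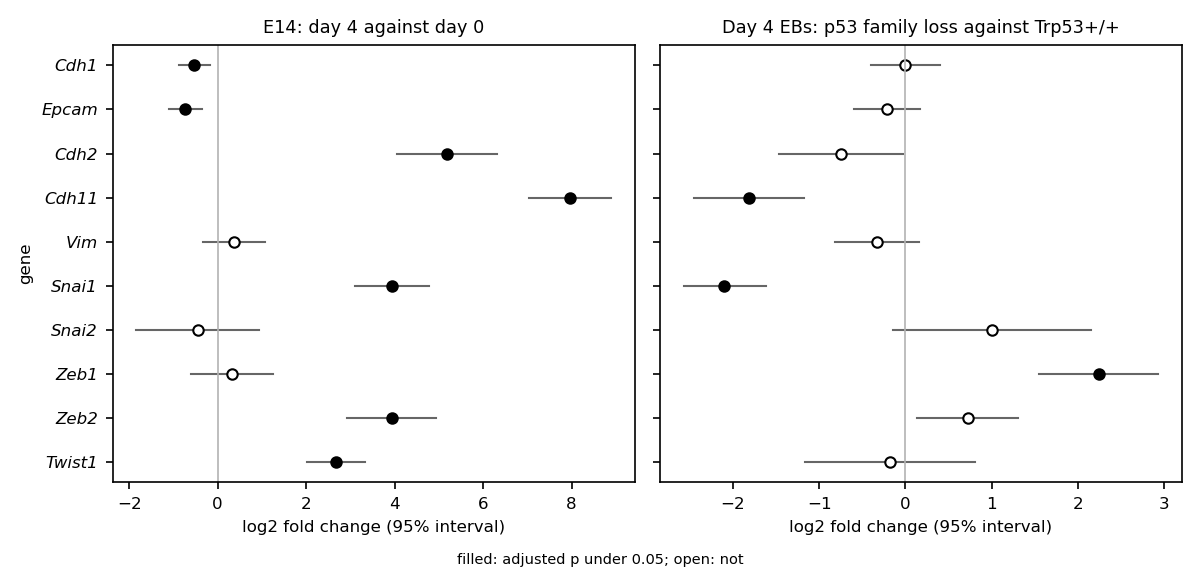
Log2 fold changes of the 10 genes with 95% intervals for day 4 against day 0 in E14 (left) and for p53 family loss against Trp53+/+ on day 4 (right), filled where the adjusted p was under 0.05. Snai1 is at 3.93 on the left and -2.10 on the right, and Zeb1 at 0.32 and 2.24.

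Among the lists, 7 of 26 signals and factors of gastrulation movements were lower in p53 family loss and none higher, with a median of -0.58 against 0.01 over all tested genes. Mixl1 had 4730 ± 786 in Trp53+/+ and 836 ± 1.19 in p53 family loss, T 9692 ± 849 and 1327 ± 321, Eomes 14382 ± 3338 and 3291 ± 252, and the ligand gene Wnt3 1199 ± 129 and 239 ± 27.3 (SD, n = 2 each). With all 4 libraries, 1.24% of all tested genes were called. When 1 library was left out, more genes of this list were called, and so were more of all tested genes. The larger counts given below for other lists come from the same fits. Of 21 genes of mesenchymal matrix, proteases and cytoskeleton, 3 were higher, among them Acta2 (smooth muscle actin) with 279 ± 50.3 and 926 ± 4.89, and Col1a2 (a fibrillar collagen chain) with 207 ± 75.5 and 1062 ± 276. That count was 9 without Trp53+/+ replicate 1, 8 without replicate 2 and 5 without p53 family loss replicate 2. Gsc was the 1 gene called among 17 other factors of the transition, at -1.96 (3 and 4 genes without Trp53+/+ replicate 1 and 2). St14, a membrane protease of epithelia, was the 1 called among 26 epithelial genes, at -1.03, and its call was lost without either p53 family loss library (the list held 3 and 4 called genes without Trp53+/+ replicate 1 and 2). Of 7 genes for catenins and their partners limma called 0, with 1 at an unadjusted p under 0.05 and 0 called by edgeR or DESeq2.

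Cell type markers differed between these libraries. Of those called, T, Mixl1, Mesp1, Gsc and Col1a2 are also in the lists above. Over all tested genes 1.24% were called, 0.566% as higher and 0.674% as lower. Summed levels of nascent mesoderm markers were 688 to 812 CPM in Trp53+/+ and 113 to 172 in p53 family loss, with 3 of 8 genes called lower, and those of definitive endoderm markers were 222 to 372 and 80.5 to 105, with 2 of 7 called lower. Neural markers summed to 22.3 to 45.6 CPM and 207 to 223, with Sox1 and Pax6 of 8 called higher. Fibroblast markers summed to 42.8 to 49.7 and 91.4 to 114, with Col1a2 called higher, neural crest markers to 30.5 to 57.9 and 47.5 to 64.4, with Pax3 called higher, and visceral endoderm markers to 28.7 to 68.1 and 51.7 to 62.5. Naive ES cell markers summed to 147 to 228 and 123 to 163, and surface ectoderm and trophoblast markers to 7.85 to 8.27 and 7.27 to 8.93. The part of these cell types in the differences of Snai1, Cdh11 and Zeb1 was not tested.

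The 2 tables were normalised separately and come from different strains and culture media, so their levels are set side by side in CPM (mean ± SD, n = 2) and were not tested. Snai1 was at 16.8 ± 2.73 on day 3 and 110 ± 18.7 on day 4 in E14, at 60.7 ± 8.77 in Trp53+/+ and at 14.4 ± 0.0749 in p53 family loss. For Cdh11 the same 4 groups had 20.4 ± 8.28, 119 ± 16.0, 55.7 ± 3.14 and 16.9 ± 6.54. For both genes the Trp53+/+ mean lay between those of E14 day 3 and E14 day 4. The p53 family loss mean lay below that of E14 day 3. For Zeb1 the groups had 2.19 ± 1.13, 15.5 ± 5.88, 4.83 ± 1.73 and 23.0 ± 3.05, so that p53 family loss had the highest mean of the 4 groups and also lay above the day 0 ES cells, at 10.8 ± 2.42. Cdh2 had 47.9 ± 14.2, 279 ± 10.8, 161 ± 72.8 and 94.5 ± 18.8, and Cdh1 had 837 ± 57.1, 580 ± 10.5, 802 ± 107 and 821 ± 67.9.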

How the data were processed

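RNA from 14 libraries was made into TruSeq v2 libraries and sequenced with paired ends, per the labels' protocols. Per the submitters' processing notes, the tools were DESeq2, HTSeq (0.5.4), SAMtools (0.1.19), FastQC (0.11.3) and Bowtie2, with build mm9 and no roles given. The 2 deposited tables give a signal, made of counts that 1 factor for each library has scaled: in every library 100% of values were whole multiples of its smallest step (tolerance 1e-06), and dividing by that step gave reads. The 16 ChIP-seq and input samples were not analysed here.

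Each table was fitted whole with limma 3.58.1 (R 4.3.3, intensity trend) on log2(signal + 1), after edgeR's filterByExpr on the reads. Alternatives were edgeR 4.0.16 and DESeq2 1.42.0 on the reads, TMM scaling, a pseudocount of 8, no filter, a replicate block, each library left out, and a fit of days 0 and 4 alone. The functions were tested on simulated data. The text names the 10 genes, up to 4 called genes per list with the smallest p (1 per list at a step), and the 4 genes most alike in pattern with a day mean of at least 10 CPM. The members, the lists (97 pathway and 65 marker entries) and the tests were chosen with earlier results of these data known. Comparisons with day 2 were added after seeing the values. Of the marker genes, Rhox5 was not matched. One gene that the naming rule selects is not reported here.

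Intervals reflect the spread between the 2 libraries per group.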

Additional observations from a re-analysis of the deposited data

How the results depend on the processing

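The number of the 10 genes called changed little for day 4 against day 0 (7, and 5 to 7 with 1 library left out), for any day (9, and 7 to 9) and for the genotypes (3, and 3 to 4). Along with the share of all tested genes called, it moved at the steps. With 1 library left out it ranged from 0 to 1 for day 0 to 1 (0 in the main test), 0 to 3 for day 1 to 2 (0), 0 to 2 for day 2 to 3 (1), 0 to 9 for day 3 to 4 (6), 1 to 5 for day 0 to 2 (4) and 5 to 9 for day 2 to 4 (9). DESeq2 called 2 genes from day 0 to 1 (9.15% of all tested genes) and 3 from day 1 to 2 (8.14%). With the replicate block 1 gene (Zeb1) was called from day 1 to 2, and 5 between genotypes, where Cdh2 (lower) and Zeb2 (higher) joined the 3. Whether library numbers pair the samples is not settled. Deviations of same-numbered libraries correlated at -0.19 to 0.351 over 10 pairs of days, 3 of them over 0.1. They correlated at 0.572 in the single pair of genotypes. The block moved all called genes of the genotype table from 184 to 2973, and no other count of the 10 genes by over 1.5 times. DESeq2 called 657.

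Over 1230 refits of single members none reversed, 58 lost and 35 gained a call, and the cause was not tested. List counts ranged, with 1 library left out, from 3 to 13 (8) for epithelial and 1 to 3 (2) for catenin genes at day 4 against day 0. Fitting those days alone gave 4 and 1, and no filter gave 1 for catenin genes. Between genotypes the block gave 9 epithelial, 1 catenin, 9 matrix, 9 other factor and 15 gastrulation genes, and DESeq2 2, 0, 7, 3 and 11. Depth limits Snai2, with 8 to 37 reads per library.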

Other observations

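Between neighbouring days in E14 cells, other genes of the lists also passed through low levels. Krt8, a keratin of simple epithelia, was at 9090 ± 6829 normalised reads on day 0, 543 ± 238 on day 1, 574 ± 44.6 on day 2, 1551 ± 596 on day 3 and 9023 ± 85.8 on day 4 (SD, n = 2 each). The 2 day 0 libraries stood at 4261 and 13918, and the fall to day 1 of 3.89 on the log2 scale (limma, adjusted p = 0.0048) was not called without day 1 replicate 2 (adjusted p = 0.058). Tagln, an actin-binding protein of smooth muscle, went from 6532 ± 3337 on day 0 to 315 ± 50.4 on day 2 and 3817 ± 392 on day 4. Fn1 stood at 12613 ± 4764 on day 3 and 114926 ± 7366 on day 4, a log2 fold change of 3.24 (adjusted p = 3e-04). Wnt5a, a ligand of noncanonical Wnt signalling, was at 53.8 ± 24.8 on day 3 and 2279 ± 549 on day 4. Mixl1 rose a day earlier, from 54.4 ± 2.23 on day 2 to 1652 ± 435 on day 3. The calls of Tagln (day 0 to 1), Fn1 and Wnt5a (day 3 to 4) and Mixl1 (day 2 to 3) held without each E14 library in turn.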
